A study of Mus musculus with 4 samples.

Results

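miR-23, miR-27 and miR-24 are made together from a pair of paralogous gene clusters, here called the a cluster (miR-23a, miR-27a and miR-24-2) and the b cluster (miR-23b, miR-27b and miR-24-1). Their levels were read in small RNA libraries of the mouse main olfactory epithelium. The 9 members were chosen by name, and all 9 are among the 1167 miRNAs of the authors' deposited table. They are 4 arms of the a cluster (mmu-miR-23a-3p, mmu-miR-27a-3p, mmu-miR-27a-5p and mmu-miR-24-2-5p), 4 arms of the b cluster (mmu-miR-23b-3p, mmu-miR-27b-3p, mmu-miR-27b-5p and mmu-miR-24-1-5p), and mmu-miR-24-3p, which both clusters make. The tissue came from male C57BL/6 mice 3 months of age. 2 libraries were from wild-type mice and 2 from AC3-/- mice, which lack adenylyl cyclase 3, the cAMP-making enzyme of odour signalling in olfactory sensory neurons. The question is which miRNAs change in this epithelium without AC3, and here whether the a and b clusters do. Whether the libraries of 1 genotype are from different mice is not in the labels, so the spread between them, and with it every p-value, may be technical. The prefix mmu- (mouse) is left out from here on.

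Each cluster is transcribed as 1 long RNA, from which 3 hairpins are cut, and each hairpin can give a mature miRNA from its 5′ side (5p) and from its 3′ side (3p). A mature miRNA guides silencing to mRNAs that pair with its seed, the bases from 2 to 8 counted from its 5′ end. The a cluster is known from blood cells, endothelium and muscle. Among known targets, miR-23 represses glutaminase, miR-27 represses the fat-cell regulator Pparg, and miR-24 represses the cell-death gene Bcl2l11.

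The mature sequences show what the clusters share and which arms can tell them apart. RefSeq (GRCm38.p6) matched 8 of the 9 members, and seeds are in capitals. The 3p arms come first:
miR-23a-3p: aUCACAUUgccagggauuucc
miR-27a-3p: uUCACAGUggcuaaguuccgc
miR-27b-3p: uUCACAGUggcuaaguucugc
miR-24-3p: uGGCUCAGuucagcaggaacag
The 5p arms follow:
miR-27a-5p: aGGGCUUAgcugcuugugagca
miR-27b-5p: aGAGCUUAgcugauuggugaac
miR-24-2-5p: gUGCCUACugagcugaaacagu
miR-24-1-5p: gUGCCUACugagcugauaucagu

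miR-27a-3p and miR-27b-3p have the same seed and are identical at 20 of 21 bases. They differ by C19U, the miR-27a-3p base first, with positions counted from the 5′ end. The 5p arms are less alike. Compared position by position without gaps, miR-27a-5p and miR-27b-5p are identical at 14 of 22 bases, and G3A puts a difference in their seed. A gap would align more of their bases from 17 on. miR-24-2-5p and miR-24-1-5p share the seed and by position are identical at 17 of the first 22 bases. Between them are A17U, C19U, A20C, G21A and U22G. miR-24-1-5p is 1 base longer and both have the same 3′ end, so the differences from base 19 on come from that extra base. miR-24-3p has the same sequence in both clusters, so its reads cannot be assigned to either, while the 5p arms of miR-24 can. Where arms differ by 1 base near the 3′ end, the authors' way of counting could split reads between them.

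On GRCm38 the a cluster lies on the plus strand at chr8:84208518-84208921, a stretch of 404 bases. Its hairpins are Mir23a (chr8:84208518-84208592), Mir27a (chr8:84208672-84208758) and Mir24-2 (chr8:84208815-84208921). They lie outside any other gene of GENCODE M21, between Nanos3 and Zswim4. The b cluster lies on the plus strand at chr13:63300484-63301275, a stretch of 792 bases. All of its hairpins lie within 2010111I01Rik, a protein-coding gene on the same strand. Mir23b (chr13:63300484-63300557) is intronic, and Mir27b (chr13:63300712-63300784) and Mir24-1 (chr13:63301208-63301275) overlap an exon of at least 1 of its transcripts. Fancc runs across them on the other strand, where they are intronic.

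The deposited values are means of normalised reads per genotype. Whole reads of the single libraries were worked back from these means for 8 of the 9 members, and the libraries are lettered K and L for AC3-/- and V and W for wild type. The letters carry no replicate number. The 2 libraries of a genotype together held 19252656 to 20011637 reads in AC3-/- and 21187782 to 23071135 in wild type, over rows that can share reads. 8 miRNAs listed for sensory epithelium (the miR-183/96/182 cluster and the miR-200 family) were all detected, which is only a weak check of the labelled tissue. Their means summed to 1805089 for AC3-/- and to 5418014 for wild type. Only 1 of the 8 has library values, so how far a single library sets these sums is not known. The wild-type libraries lay farther apart than the AC3-/- ones, which does not by itself show whether V or W was unusual. Over the 450 miRNAs that had library values and averaged 10 or more normalised reads, log2 ratios had an SD of 1.11 between V and W and of 0.57 between K and L.

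No member passed either test of the genotype difference. In the authors' deposited table the log2 fold changes of AC3-/- over wild type, which are shrunken toward 0, lay between -0.17 for miR-27b-3p and 0.20 for miR-24-2-5p. 7 of the 9 members lay below 0 and 2 above, with a median of -0.06. Of all 1167 rows, 589 lay below 0 and 578 above, with a median of -0.01. The lowest adjusted p among the members was 0.940 in the authors' deposited table, and 0 of 9 had an unadjusted p under 0.05. Over all rows 0.0857% passed the adjusted threshold and 3.51% the unadjusted one. limma, fitted over 450 miRNAs, called 0 at an adjusted p of 0.05, as did limma's voom on the recovered reads, and 16 miRNAs (3.56%) had an unadjusted p under 0.05, none of the 8 members among them.

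**Figure D1:**
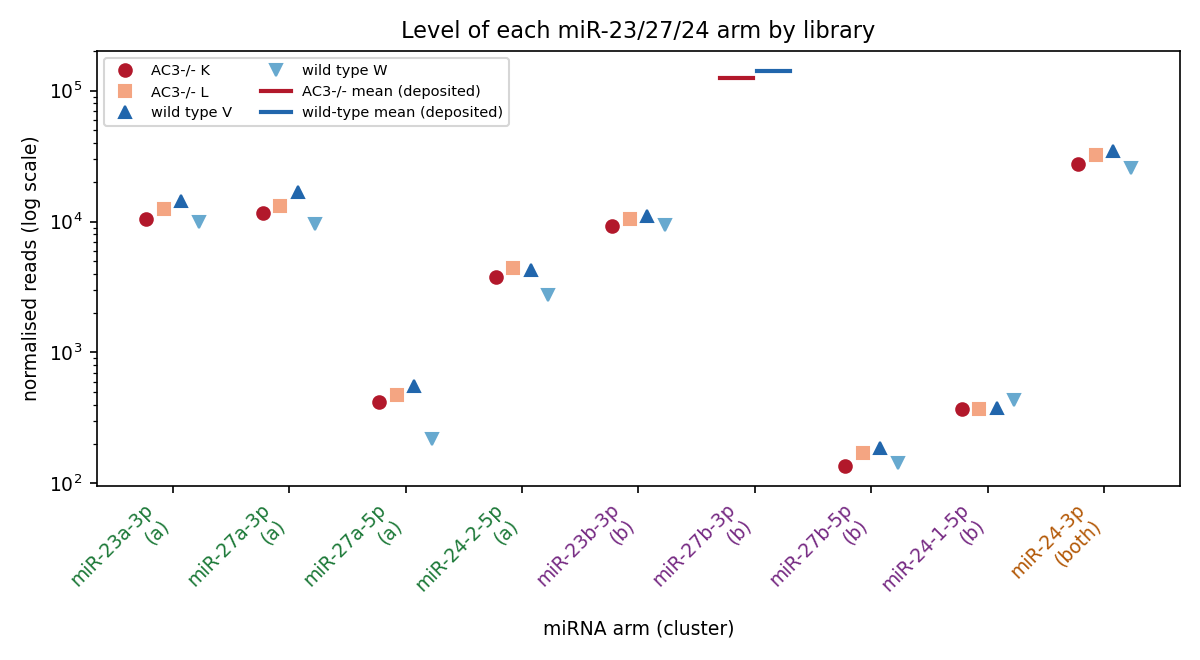
Normalised reads (log scale) of each arm in the 4 libraries, with the cluster of each arm in brackets; circles and squares are AC3-/- libraries K and L, triangles are wild-type libraries V and W, and the bars for miR-27b-3p are the deposited genotype means. W is the lowest point for the 4 a-cluster arms and the highest for miR-24-1-5p.

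The a-cluster guide strands were close in level. miR-23a-3p had 10530 and 12520 normalised reads in AC3-/- libraries K and L and 14430 and 9843 in wild-type libraries V and W (12087, 13754, 13580 and 8417 reads). Both AC3-/- libraries lay between the wild-type ones. The limma log2 difference of miR-23a-3p was -0.05 with a standard error of 0.26 and an adjusted p of 0.976. miR-27a-3p, its neighbour in the transcript, had 11612 and 13187 normalised reads in K and L and 16861 and 9541 in V and W. Here too the AC3-/- libraries lay inside the wild-type range, with V the highest and W the lowest. For miR-27a-3p limma put the log2 difference at -0.04 (standard error 0.32, adjusted p = 0.976).

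The 5p arms of the a cluster were scarcer and more uneven between the wild-type libraries. miR-27a-5p, the passenger strand of miR-27a, had 419.9 and 471.5 normalised reads in K and L and 550.4 and 218.7 in V and W (482, 518, 518 and 187 reads). W held 2.52-fold less than V, and the AC3-/- libraries lay between them. The limma log2 difference of miR-27a-5p was 0.36 with a standard error of 0.51 and an adjusted p of 0.935. miR-24-2-5p, the strand opposite miR-24-3p in the a-cluster hairpin, had 3795 and 4437 normalised reads in K and L and 4230 and 2755 in V and W. K, L and V were close together and W was 1.54-fold below V. limma put the difference of miR-24-2-5p at 0.27 on the log2 scale (standard error 0.31, adjusted p = 0.935).

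The 3 b-cluster arms with library values varied less between the wild-type libraries. miR-27b-3p, the most abundant b-cluster arm, has none. miR-23b-3p had 9240 and 10550 normalised reads in K and L and 11070 and 9347 in V and W. The genotypes overlapped, and V exceeded W by 1.18-fold. The limma log2 difference of miR-23b-3p was -0.04 with a standard error of 0.22 and an adjusted p of 0.976. miR-27b-5p, the passenger strand of miR-27b, had 135.9 and 170.2 normalised reads in K and L and 186.0 and 143.8 in V and W (156, 187, 175 and 123 reads). The genotypes overlapped again, with K the lowest and V the highest. For miR-27b-5p limma gave -0.10 on the log2 scale with a standard error of 0.35 and an adjusted p of 0.963.

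miR-24-1-5p, the b-cluster counterpart of miR-24-2-5p, was the 1 member whose genotypes did not overlap. It had 369.4 and 371.4 normalised reads in K and L and 376.2 and 430.3 in V and W (424, 408, 354 and 368 reads). The AC3-/- libraries were nearly equal and lay just under V, with W above all of them. With limma the log2 difference of miR-24-1-5p was -0.12 with a standard error of 0.32 and an adjusted p of 0.963. Genotypes without overlap were found in 1 of 8 members and in 33.6% of the 450 miRNAs.

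miR-27b-3p was the most abundant member, and its library values could not be worked back: its AC3-/- mean has 64 solutions in whole reads and its wild-type mean 47. The authors' deposited table gives miR-27b-3p a mean of 124723 for AC3-/- and of 142627 for wild type, with a log2 fold change of -0.17 and an adjusted p of 0.940. It made up 1.43% of the summed means in AC3-/- and 1.16% in wild type, and all 9 members together 2.21% and 1.73%. These shares depend on the few most abundant miRNAs of the profile, which make up most of each sum.

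miR-24-3p, which both clusters feed, had 27512 and 32162 normalised reads in K and L and 34443 and 25645 in V and W (31581, 35333, 32415 and 21930 reads). The wild-type libraries lay on either side of the AC3-/- ones. The limma log2 difference of miR-24-3p was 0.00 with a standard error of 0.21 and an adjusted p of 1.00. Its 95% interval ran from -0.53 to 0.53.

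**Figure D2:**
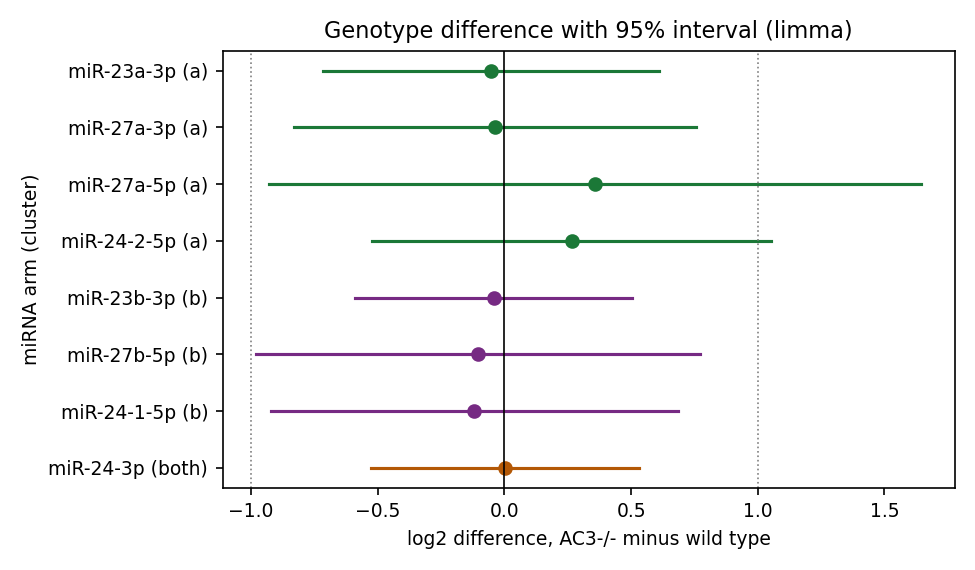
The limma log2 difference of AC3-/- minus wild type for the 8 members with library values; points are estimates, bars are 95% intervals, and dotted lines mark a 2-fold difference. Every interval includes 0, and those of miR-27a-5p (-0.93 to 1.65) and miR-24-2-5p (-0.52 to 1.05) reach past 1.

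The width of these intervals sets what could be seen. For miR-24-3p the interval spans 0.694-fold to 1.44-fold, and for miR-23b-3p 0.665-fold to 1.42-fold. For miR-27a-5p it spans 0.525-fold to 3.13-fold, so a 2-fold rise of this arm would lie inside it. In order of level, miR-27b-3p stood highest, followed by miR-24-3p, then miR-27a-3p, miR-23a-3p and miR-23b-3p, whose ranges over the libraries overlap. miR-24-2-5p came next, and miR-27a-5p and miR-24-1-5p, which overlap, lay above miR-27b-5p. Ligation and PCR favour some sequences, so this order is one of reads, not of molecules.

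The a cluster was next set against the b cluster within each library, by the share of a-cluster reads in each pair of matching arms. This share does not depend on how libraries were scaled. miR-27a-5p made up 75.5% of the reads of miR-27a-5p and miR-27b-5p in K (95% exact binomial interval 72.0 to 78.8), 73.5% in L (70.1 to 76.7) and 74.7% in V (71.3 to 77.9). In W it made up 60.3% (54.6 to 65.8). The intervals of K, L and V overlapped one another, and that of W lay below all of them. The intervals cover counting error only, since PCR reads without molecular identifiers are not independent molecules.

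The share of miR-24-2-5p in its pair with miR-24-1-5p was lowest in W as well. miR-24-2-5p made up 91.1% of the pair's reads in K (90.3 to 91.9), 92.3% in L (91.5 to 93.0), 91.8% in V (91.0 to 92.6) and 86.5% in W (85.1 to 87.8). Per read of miR-24-1-5p there were 10.3, 11.9 and 11.2 reads of miR-24-2-5p in K, L and V and 6.40 in W. For the 3p arms of miR-23 the libraries lay closer. miR-23a-3p made up 53.3% of the pair in K (52.6 to 53.9), 54.3% in L (53.7 to 54.9), 56.6% in V (56.0 to 57.2) and 51.3% in W (50.5 to 52.1). W was again the lowest, and V the highest. For the 3p arms of miR-27 only the deposited means can be compared: miR-27a-3p made up 9.04% of the pair in AC3-/- and 8.47% in wild type.

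**Figure D3:**
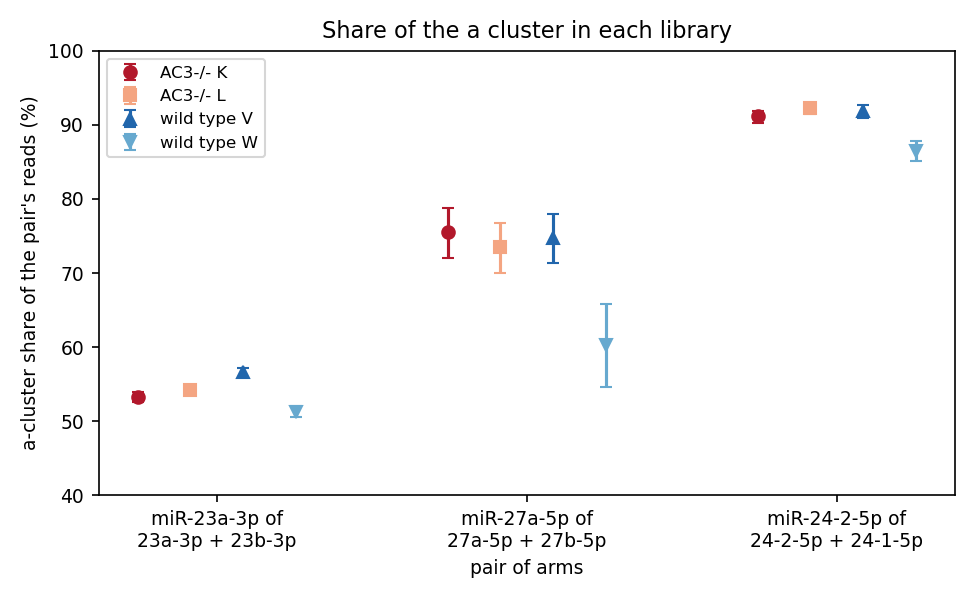
Share of a-cluster reads (%) in each of 3 pairs of matching arms, by library; bars are 95% exact binomial intervals, and the axis starts at 40%. Libraries K, L and V lie within 3 percentage points of each other for the 5p arms of miR-27 and of miR-24, and W lies below them in each pair.

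The genotype difference in the a-over-b ratio was smaller than the SD of the wild-type libraries in each of the 3 pairs. For the 5p arms of miR-27 the log2 ratio was 1.54 ± 0.11 (SD, n = 2) in AC3-/- and 1.08 ± 0.68 (SD, n = 2) in wild type, a difference of 0.46 with an exact permutation p of 0.667 (two-sided). For the 5p arms of miR-24 it was 3.47 ± 0.15 (SD, n = 2) and 3.08 ± 0.57 (SD, n = 2), a difference of 0.38 with an exact permutation p of 0.667. For the 3p arms of miR-23 it was 0.22 ± 0.04 (SD, n = 2) and 0.23 ± 0.22 (SD, n = 2), a difference of -0.01 with an exact permutation p of 1. The Benjamini-Hochberg adjusted p over these 3 pairs was 1 for each, and 2 libraries against 2 cannot go below 0.333. The differences depended on which wild-type library was kept. Without W they were -0.02 for the 5p arms of miR-27, -0.02 for those of miR-24 and -0.16 for the 3p arms of miR-23. Without V they were 0.94, 0.79 and 0.14.

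Between the wild-type libraries themselves, the arms of the clusters that had library values moved unequally. The log2 ratio of W over V was -0.55 for miR-23a-3p, -0.62 for miR-24-2-5p, -0.82 for miR-27a-3p and -1.33 for miR-27a-5p. In the b cluster it was -0.24 for miR-23b-3p, -0.37 for miR-27b-5p and 0.19 for miR-24-1-5p, and miR-24-3p, from both, was at -0.43. The medians were -0.72 over the 4 a-cluster arms and -0.24 over the 3 b-cluster arms, against 0.04 over all 450 miRNAs. W was the lowest library for 5 of 8 members, the 4 a-cluster arms and miR-24-3p, and for 33.6% of the 450. 1 of 8 members, miR-27a-5p, lay 2-fold or more apart between V and W, against 25.8% of the 450. In 4 of 8 members (miR-23a-3p, miR-27a-3p, miR-27a-5p and miR-24-3p) both AC3-/- libraries lay between the wild-type ones, against 27.3% of the 450. Arms of 1 transcript are not independent observations, and 1 library has no replicate check.

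The AC3-/- libraries differed less. L was above K for 8 of 8 members, against 51.3% of the 450 miRNAs. The log2 ratio of L over K ran from 0.01 for miR-24-1-5p to 0.32 for miR-27b-5p, with medians of 0.20 in the a cluster and 0.19 in the b cluster.

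**Figure D4:**
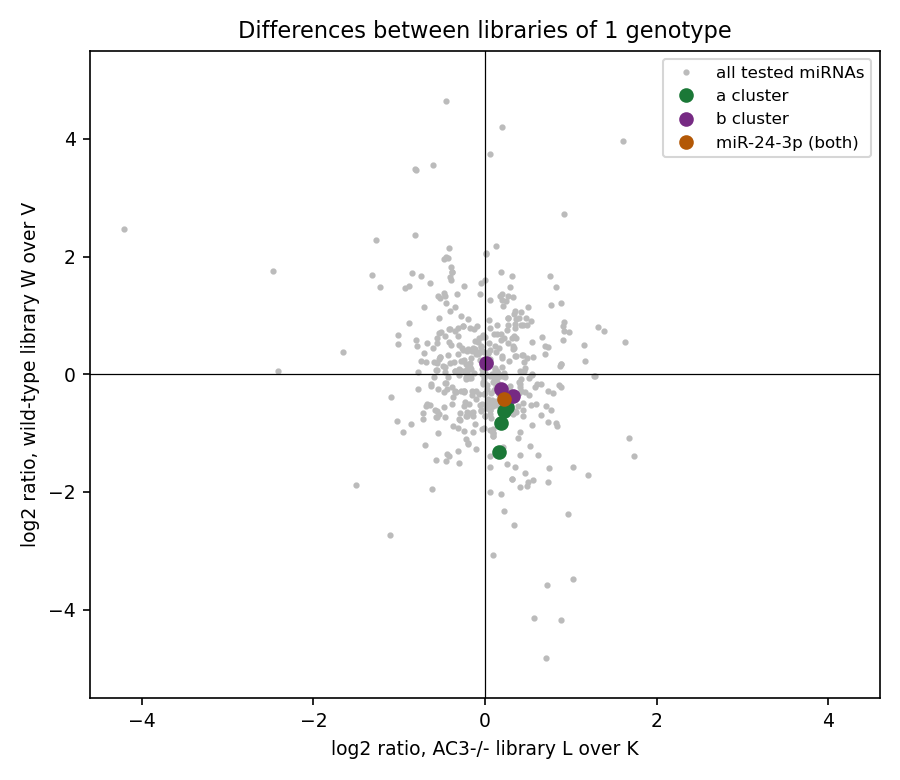
Log2 ratio of wild-type library W over V (vertical) against that of AC3-/- library L over K (horizontal); grey points are the 450 tested miRNAs, and coloured points are the 8 members. Members lie just right of 0, and the a-cluster arms lie lowest, from -0.55 to -1.33 on the vertical axis.

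Summed levels were lower in W than in V for most of the lists of cell-type marker miRNAs. For comparison, W was the lowest library for 33.6% of the 450 miRNAs, and their median log2 ratio of W over V was 0.04. All 6 leukocyte miRNAs were lowest in W, with summed levels of 14241 and 17815 normalised reads in K and L and 16825 and 5228 in V and W. All 5 multiciliated-cell miRNAs with library values, of 6 listed, were lowest in W (13839, 26206, 30579 and 5971 in K, L, V and W). The 4 endothelial and smooth muscle miRNAs with library values, of 6, were all below V in W and 3 were the lowest there (22309, 21466, 21792 and 15421). The 4 red blood cell miRNAs were all below V in W (6224, 4759, 5773 and 3180), and so were the 2 mesenchymal ones with library values, of 4 (3946, 5360, 5596 and 4541). The 4 striated muscle miRNAs were not (6554, 4394, 6613 and 7025). Of the 8 sensory epithelium miRNAs, the 1 with library values, miR-141-3p, was highest in W (18849, 22274, 17615 and 41585). No listed marker had a genotype mean of 0, but miR-206-3p, a striated muscle miRNA, was at 0 in AC3-/- library L. Their part in the a-cluster values of W was not tested. In a bulk sample, fewer cells of a type and less RNA per cell cannot be told apart.

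The arms of each hairpin were far from equal. For miR-27a there were 27.7 and 28.0 reads of the 3p arm per read of the 5p arm in K and L, and 30.6 and 43.6 in V and W. The b-cluster hairpin was more one-sided: the deposited means gave 815 reads of miR-27b-3p per read of miR-27b-5p in AC3-/- and 865 in wild type. miR-24-3p had 6.61 and 6.69 reads per read of its 2 5p arms together in K and L, and 7.48 and 8.05 in V and W. Both AC3-/- ratios lay below both wild-type ones here and for miR-27a. For miR-23b the ratio was 482 and 610 in K and L and 336 and 470 in V and W. There both AC3-/- ratios lay above the wild-type ones. By level, genotypes did not overlap in 33.6% of the 450 miRNAs. These differences were singled out after their values were seen and were not tested. miR-23 gave almost only its 3p arm. miR-23a-5p had 1, 1, 1 and 0 reads in K, L, V and W, and miR-23b-5p 22, 19, 31 and 17.

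The miR-24 hairpins are overlapped on the other strand by those of miR-3074, and the deposited rows of both held nearly the same number of reads. For the a cluster these mature arms are shown in full, with the miR-3074 seeds in capitals:
miR-3074-5p: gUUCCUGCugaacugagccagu
miR-3074-2-3p: uGUUUCAGcucaguaggcac
miR-24-3p and miR-3074-5p overlap by 20 bases on chromosome 8 and by 20 on chromosome 13, and miR-24-2-5p and miR-3074-2-3p overlap by 20 on chromosome 8. miR-24-2-5p had 4356, 4875, 3981 and 2356 reads in K, L, V and W, and miR-3074-2-3p 4299, 4804, 3932 and 2326, between 98.5% and 98.8% as many in each library. miR-24-3p had 32415 and 21930 reads in V and W, and miR-3074-5p 32242 and 21829. In AC3-/- the mean of miR-3074-5p has 2 solutions, and one of them, 31383 and 35163 reads, lies 198 and 170 below miR-24-3p. For the b cluster the rows were less alike: miR-24-1-5p had 424, 408, 354 and 368 reads and miR-3074-1-3p 304, 280, 257 and 275, between 68.6% and 74.7% as many.

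Reads of the opposite strands cannot be told apart without strand, and whether the authors counted by strand is not given in the sources used here. Rows of miR-3074 are therefore not taken as separate observations, and the values of miR-24-3p, miR-24-2-5p and miR-24-1-5p are uncertain to the extent that reads were shared.

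**Figure D5:**
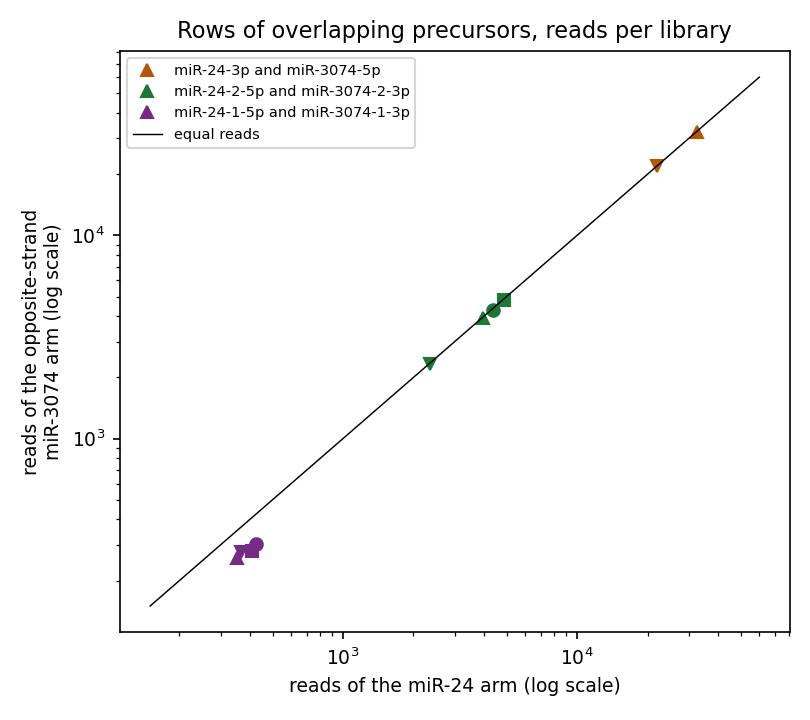
Reads of each miR-24 arm (horizontal) and of the miR-3074 arm on the opposite strand (vertical), both on log scales; each symbol is 1 library, with the symbols of the plot of levels, and the line marks equal reads. The pairs of miR-24-3p and miR-24-2-5p lie on the line in each library shown, and those of miR-24-1-5p below it.

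The other products of the clusters did not pass either. In the authors' deposited table no unadjusted p of the 5 (miR-23a-5p, miR-23b-5p and the 3 rows of miR-3074) was below 0.05. miR-23b-5p had the farthest log2 fold change of the 5, -0.40 with an adjusted p of 0.940 in the authors' deposited table.

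Among 244 other miRNAs with a mean of at least 100, the profiles nearest to the members were found by the Euclidean distance between log2 levels centred over the 4 libraries. For miR-23a-3p the nearest was miR-181b-5p at 0.09, against a median distance of 0.71. It had 3962 and 4431 normalised reads in K and L and 5239 and 3762 in V and W. miR-181b-5p was also the nearest to miR-24-3p (0.10) and to miR-27b-5p (0.14). For miR-27a-3p it was miR-351-5p (0.17), for miR-24-2-5p miR-222-3p (0.08), and for miR-23b-3p miR-181a-1-3p (0.09). For miR-27a-5p it was miR-142a-5p (0.15), with 4608 and 5492 normalised reads in K and L and 6519 and 2266 in V and W. For miR-24-1-5p it was let-7d-3p (0.05), with 1439 and 1498 in K and L and 1466 and 1669 in V and W. The second nearest were miR-322-3p, novel_117, miR-28a-5p, miR-676-5p, miR-450a-5p, miR-146b-5p and miR-421-3p, with novel_117 second for both miR-24-3p and miR-23b-3p. 4 libraries with V and W this far apart make such likeness mostly a likeness in V and W.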

How the data were processed

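The authors deposited 1 table of 1167 miRNAs. Its 2 abundance columns hold a signal, the mean of normalised read counts in each genotype, as the values and, per the file headers, the column names show. It also holds the authors' log2 fold change, p-value and adjusted p-value. Bowtie, DESeq 1.8.3 and GRCm38 appear in the submitters' processing notes without a role. How reads were counted, with strand or without, and against which miRBase release is not given in the sources used here. A deposited mean is the sum of whole multiples of 2 steps, 1 per library, and whole reads were accepted where 1 sum matches all 10 digits: 1127 rows (96.6%) in AC3-/- and 1135 (97.3%) in wild type, all rows below means of 22980 and 48325. Size factors were 1.148, 1.099, 0.9411 and 0.8551 for K, L, V and W. limma 3.58.1 in R 4.3.3 was fitted with an intensity trend to log2(normalised value + 1), which understates changes of low miRNAs, over 450 miRNAs averaging 10 or more, with Benjamini-Hochberg adjustment. Recovery and fit were tested on simulated data. The simulated libraries all had the same spread, so the fit was not tested with libraries as far apart as V and W. All 9 members, the 5 other products and the 2 nearest miRNAs per member are named. The members and lists were chosen with earlier results of these data known. Alternatives changed the filter, the pseudocount (0.5 and 5), the scale, the test and the libraries.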

Additional observations from a re-analysis of the deposited data

How the results depend on the processing

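No member passed an adjusted p of 0.05 in limma under any of the 10 alternatives run, where the lowest adjusted p was 0.0648 (miR-27a-5p without wild-type library V). The deposited values put 1 miRNA past the adjusted threshold, 1 with rows of a mean of at least 10 only, and 41 an unadjusted p of 0.05. limma called 0 with no filter, with a mean of at least 100, with either pseudocount and, in alternatives chosen after seeing the data, with median-centred libraries or voom on the recovered reads. With 1 library left out it called 0 to 62: 62 without V, 2 without W, and 0 without K or L; the lone library is then assumed to vary like the other pair. Leaving out 1 library moved the log2 difference from -0.33 to 0.22 for miR-23a-3p, -0.45 to 0.38 for miR-27a-3p, -0.31 to 1.02 for miR-27a-5p, -0.044 to 0.57 for miR-24-2-5p, -0.17 to 0.079 for miR-23b-3p, -0.29 to 0.080 for miR-27b-5p and -0.21 to 0.21 for miR-24-3p. It stayed below 0 for miR-24-1-5p, from -0.22 to -0.02. For miR-24-3p it was also -0.089 with median-centred libraries and -0.0031 with voom. The log2 ratio of the a over the b cluster, AC3-/- minus wild type, ran from -0.16 to 0.14 for miR-23-3p, -0.018 to 0.94 for miR-27-5p and -0.022 to 0.79 for miR-24-5p. The cause was not tested. Scaling to a fixed library total was not run, because the most abundant miRNAs have no library values. No paired analysis was possible because the recovered libraries carry no replicate number.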
